A study of Homo sapiens with 6 samples.

Results

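The 37 genes of the human mitochondrial genome were followed in RNA sequencing of Jurkat cells, an established T-cell leukemia line. Members were all rows whose symbol starts with MT-, 37 of 59248 symbols in the table: 13 messenger RNAs, 2 ribosomal RNAs and 22 transfer RNAs. One group of 3 libraries came from cells that, per the labels, overexpress a PD-1 splicing isoform written PDCD1-28 here, in which the start of intron 2 is retained, and the other group of 3 came from cells with the vector. All 6 libraries share the same growth description, which names the cells Jurkat KO-1 without saying what was removed or whether the line is 1 clone. Nothing in the labels says that the numbered libraries were separate cultures, and the p-values therefore reflect the scatter of these libraries alone, part or all of which may be technical.

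Mitochondrial DNA is a small circle that encodes core subunits of the respiratory chain and of ATP synthase, together with the ribosomal and transfer RNAs needed to translate them inside the organelle. It is read as long precursors from promoters on its heavy and light strands, and most messenger and ribosomal RNAs are freed from the precursors by excision of the transfer RNAs that lie between them. All other proteins of the respiratory chain, and every protein that copies, transcribes, processes or degrades mitochondrial RNA, come from nuclear genes. The level of each mitochondrial RNA therefore depends on transcription of the shared precursor and on its own processing and decay.

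Of the 13 messenger RNAs, 12 belong to the heavy-strand unit, and MT-ND6 belongs to the light-strand unit. Among the transfer RNA genes, 14 are read with the heavy-strand unit and 8 with the light-strand unit. Positions are those of chrM in GENCODE 29 (build GRCh38, also called hg38), and all 37 symbols matched. The sequences below, from the GENCODE 29 transcripts, are those of the transfer RNA genes with the largest changes in each direction and in each strand unit. Each is written 5′ to 3′ as DNA, with the anticodon in capitals.
MT-TF (phenylalanine, chrM:577-647, plus strand): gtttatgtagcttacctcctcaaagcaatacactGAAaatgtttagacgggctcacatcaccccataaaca
MT-TV (valine, chrM:1602-1670, plus strand): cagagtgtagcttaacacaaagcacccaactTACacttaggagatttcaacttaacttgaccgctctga
MT-TW (tryptophan, chrM:5512-5579, plus strand): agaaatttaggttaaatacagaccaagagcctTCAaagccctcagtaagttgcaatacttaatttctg
MT-TA (alanine, chrM:5587-5655, minus strand): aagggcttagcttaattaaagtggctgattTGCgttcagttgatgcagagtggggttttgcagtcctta
MT-TN (asparagine, chrM:5657-5729, minus strand): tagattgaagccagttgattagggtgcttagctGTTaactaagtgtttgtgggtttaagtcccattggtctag
MT-TK (lysine, chrM:8295-8364, plus strand): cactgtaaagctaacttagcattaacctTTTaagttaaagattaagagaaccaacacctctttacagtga
MT-TR (arginine, chrM:10405-10469, plus strand): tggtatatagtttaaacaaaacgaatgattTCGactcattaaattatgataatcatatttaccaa

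Among the messenger RNAs, 2 pairs lie on shared transcripts with overlapping reading frames, and the lines below show both overlaps in capitals with 20 bases on either side. These pairs matter for the comparison because reads over the shared bases belong to both genes.
MT-ATP8 to MT-ATP6 (chrM:8507-8592, plus strand, 46 shared bases): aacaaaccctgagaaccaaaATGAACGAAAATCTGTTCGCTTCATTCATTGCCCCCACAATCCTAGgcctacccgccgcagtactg
MT-ND4L to MT-ND4 (chrM:10740-10786, plus strand, 7 shared bases): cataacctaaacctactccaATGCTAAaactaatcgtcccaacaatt
In the annotation, 6 of the 13 messenger RNAs (MT-ND1, MT-ND2, MT-CO3, MT-ND3, MT-ND4 and MT-CYB) end in an incomplete stop codon, T or TA, which is completed by the poly(A) tail.

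The libraries held 59911578 to 84220970 estimated counts, and PDCD1 checked the labels, with 945, 1059 and 807 estimated counts in overexpression against 14, 18 and 15 in vector. Those values are per gene and do not separate the isoform. All 11 T cell markers listed, such as CD3D and LCK, were present, and their summed level was 2322 to 2362 CPM (counts-per-million) in overexpression and 2317 to 2505 in vector. In the edgeR comparison described below, 7 of the 11 were called lower and 1 higher, where 23.4% and 22.6% of all tested genes were. Of the markers of other cell types, EPCAM, COL1A2, DCN and LUM were at 0 in all 6 libraries. Summed B cell markers, almost all CD79A, stood at 29.9 to 38.1 CPM against 40.4 to 57.6, myeloid ones at 0.719 to 1.17 against 1.08 to 1.73, and erythroid ones at 0.124 to 0.260 against 0.879 to 20.1. Epithelial markers lay at 0.814 to 1.64 against 0.186 to 0.427, and fibroblast markers, all of it COL1A1, at 2.21 to 2.63 against 3.60 to 4.84. The part of these markers in the mitochondrial results was not tested.

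Mitochondrial RNA made up a larger part of the overexpression libraries. The 37 genes held 5.97%, 6.02% and 5.90% of all estimated counts in overexpression replicates 1 to 3 and 4.56%, 4.87% and 4.55% in vector replicates 1 to 3. The groups did not overlap, and the difference of 1.31 percentage points reached the smallest p that 3 against 3 libraries allow (exact two-sided permutation p = 0.1). The 13 messenger RNAs held 5.27% ± 0.0409 against 4.11% ± 0.196, and the 2 ribosomal RNAs 0.639% ± 0.0202 against 0.521% ± 0.0154 (SD, n = 3; exact permutation p = 0.1 for each). Transfer RNA genes held 0.0553% ± 0.00111 against 0.0319% ± 0.000807, a ratio of 1.74 where the messenger RNAs had 1.28 and the ribosomal RNAs 1.23 (n = 3; exact permutation p = 0.1). Within the mitochondrial counts alone, the messenger RNA part was 88.4% ± 0.258 and 88.1% ± 0.766 and overlapped between groups, while the transfer RNA part was 0.927% ± 0.00955 and 0.685% ± 0.0431 and did not. In bulk RNA, more mitochondrial RNA per cell and less of the remaining RNA cannot be told apart, and mitochondrial DNA was not measured.

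**Figure D1:**
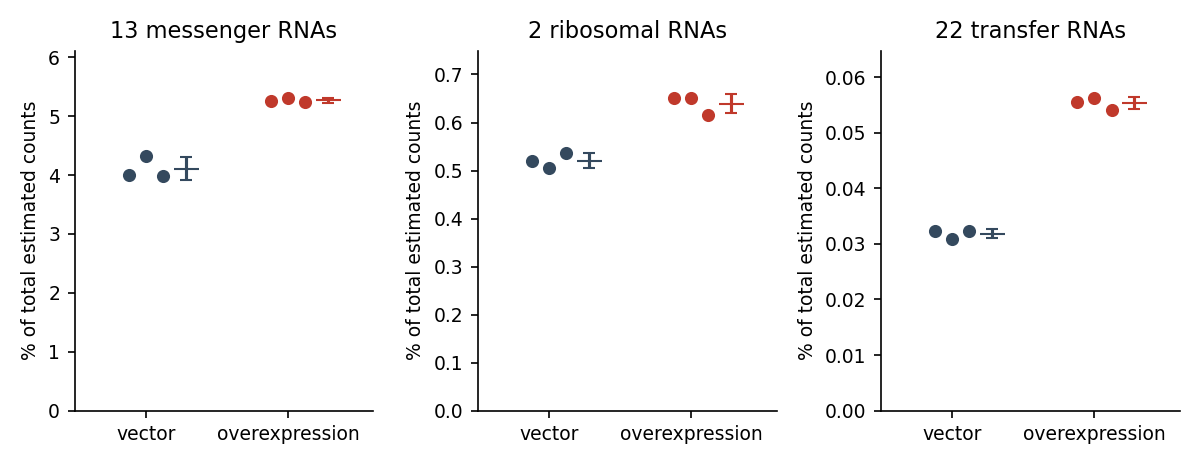
Share of total estimated counts held by the 13 messenger, 2 ribosomal and 22 transfer RNA genes of the mitochondrial genome (vertical axes in %, each starting at 0, with a scale of its own); points are libraries and the bar beside them is the mean with its SD (n = 3). In each class the 3 overexpression libraries lie above the 3 vector libraries.

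All 37 genes passed the expression filter. Counts were compared by edgeR over the 21055 genes that did, and levels are given as CPM of the TMM-scaled library, with changes as log2 fold changes of overexpression against vector ± SE and Benjamini-Hochberg adjusted p from edgeR's quasi-likelihood test, called under 0.05. Over all tested genes, 22.6% were called higher and 23.4% lower (46.1% in all), with a median log2 fold change of 0.02 and no overlap between groups in 58.7% of genes, against 33 of the 37 mitochondrial genes. Of the 13 messenger RNAs, 8 rose, 1 fell and 4 were not called, with a median of 0.30. Both ribosomal RNAs were called, in opposite directions. Of the 22 transfer RNA genes, 14 rose, 6 fell and 2 were not called, with a median of 0.73.

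The subunits of cytochrome c oxidase, the enzyme that passes electrons to oxygen, rose together. MT-CO1, which carries the catalytic center and was the most abundant gene of the whole table, stood at 17367, 17526 and 17489 CPM in overexpression and 14948, 14405 and 14724 CPM in vector, a change of 0.25 ± 0.03 (adjusted p = 0.000314). MT-CO2, the subunit that takes electrons from cytochrome c, was at 6186, 6352 and 6068 CPM against 4380, 4645 and 4397 CPM, a change of 0.47 ± 0.04 (adjusted p = 4.43e-05). MT-CO3, a structural core subunit, was at 3976, 4041 and 3734 CPM against 2648, 3216 and 2517 CPM, a change of 0.49 ± 0.09 (adjusted p = 0.00227). In all 3 genes each overexpression library exceeded each vector library, which was also so for 30.1% of all tested genes. With a GC and length trend removed they were still called, at 0.13, 0.24 and 0.26 (the largest adjusted p, 0.0293, was that of MT-CO3). The ratio of MT-CO2 to MT-CO1 counts restates the smaller change of MT-CO1 from the same counts. It was 0.355 ± 0.00776 in overexpression and 0.305 ± 0.0156 in vector without overlap.

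Complex I, the NADH dehydrogenase, takes 7 of its core subunits from mitochondrial DNA, and 5 of these rose. MT-ND4L had the largest rise of any messenger RNA, with 1580, 1601 and 1638 CPM in overexpression against 847, 961 and 841 CPM in vector, a 1.82-fold change (log2 0.86 ± 0.06, adjusted p = 1.66e-05). MT-ND4, the frame that overlaps it on the same transcript, was at 6443, 6711 and 6480 CPM against 4731, 5258 and 4697 CPM, a change of 0.42 ± 0.05 (adjusted p = 0.00029). The ratio of MT-ND4L to MT-ND4 counts was 0.246 ± 0.00715 in overexpression and 0.180 ± 0.00217 in vector (SD, n = 3). The libraries did not overlap in this ratio, so the counts assigned along the shared transcript differed between groups. The other pair with overlapping frames showed no such difference, the ratio of MT-ATP8 to MT-ATP6 being 0.318 ± 0.0172 and 0.301 ± 0.0182 with overlapping groups.

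MT-ND5, a proton-pumping subunit, was at 3187, 3205 and 3181 CPM in overexpression against 2012, 2526 and 2177 CPM in vector (0.51 ± 0.08, adjusted p = 0.000896). MT-ND6, the messenger RNA of the light-strand unit, was at 794, 787 and 739 CPM against 485, 633 and 504 CPM (0.52 ± 0.10, adjusted p = 0.00284), and its change was 0.30 with the GC and length trend removed (adjusted p = 0.0433). Their changes were nearly equal although they are read from opposite strands, and the ratio of MT-ND6 to MT-ND5 counts was 0.242 ± 0.00886 against 0.241 ± 0.00972. The strand setting of the counting was not given in the sources used here, so reads from MT-ND6 and from RNA antisense to it cannot be told apart. MT-ND3, the least abundant messenger RNA per length, was at 209, 211 and 208 CPM against 156, 192 and 160 CPM (0.30 ± 0.08, adjusted p = 0.0135). Its call was lost without overexpression replicate 1 or 2 or vector replicate 1 or 3 (adjusted p = 0.0502, 0.0523, 0.0533 and 0.0565) and with the GC and length trend removed (0.09, adjusted p = 0.495).

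MT-ND1, the first messenger RNA gene after the ribosomal RNAs, was the single one that fell. Its levels were 1125, 1177 and 1139 CPM in overexpression and 1464, 1470 and 1416 CPM in vector (-0.34 ± 0.04, adjusted p = 0.000228), with no overlap between groups, and its change was -0.55 with the GC and length trend removed. MT-ND2, which follows it, was at 1678, 1713 and 1589 CPM against 1620, 1951 and 1591 CPM and was not called (-0.05 ± 0.08, adjusted p = 0.62). Vector replicate 2 held the highest MT-ND2 value, and without it the change was 0.04 (adjusted p = 0.345).

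The messenger RNAs of complexes III and V were not called. MT-CYB encodes cytochrome b of complex III and stood at 2593, 2637 and 2698 CPM in overexpression and 2287, 3203 and 2299 CPM in vector (0.03 ± 0.12, adjusted p = 0.88). Vector replicate 2 lay above and the other vector libraries below all overexpression libraries, and without vector replicate 2 the gene was called higher (0.20, adjusted p = 0.000188). MT-ATP6 and MT-ATP8, subunits of the membrane part of ATP synthase, had changes of -0.16 ± 0.06 (adjusted p = 0.0659) and -0.08 ± 0.08 (adjusted p = 0.427). MT-ATP6 was at 4204, 4303 and 4135 CPM against 4544, 5192 and 4388 CPM, so its groups did not overlap; it was called lower by DESeq2 (-0.17, adjusted p = 0.0365; 48.6% of all genes called), without vector replicate 2 (-0.09, adjusted p = 0.00922) or 3 (-0.22, adjusted p = 0.034), and with the GC and length trend removed (-0.37, adjusted p = 0.00215; 46.8% of all genes called). MT-ATP8 was at 1408, 1368 and 1242 CPM against 1283, 1571 and 1399 CPM, and was called lower by that same fit (-0.29, adjusted p = 0.0401). Leaving out 1 library moved it between -0.16 (vector replicate 1 omitted) and -0.012 (vector replicate 2 omitted) with no call, and omitting overexpression replicate 3 also moved it by over 1.5 times.

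**Figure D2:**
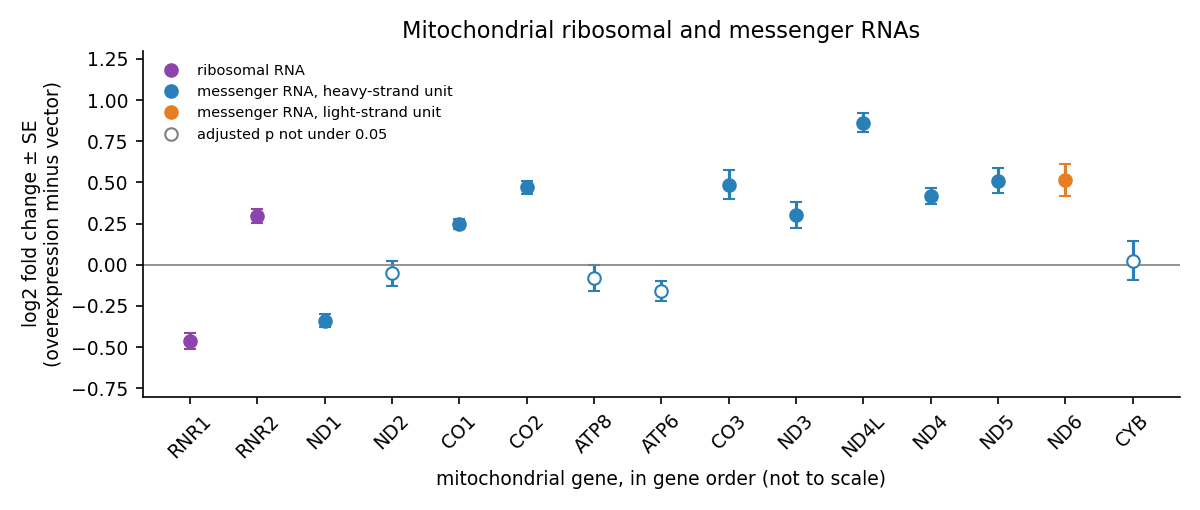
Log2 fold change ± SE (vertical axis, overexpression minus vector, edgeR) of the mitochondrial ribosomal and messenger RNAs, in gene order along the horizontal axis; purple marks ribosomal RNAs, blue the heavy-strand and orange the light-strand messenger RNAs, and open points have an adjusted p of 0.05 or more. MT-RNR1 at -0.47 and MT-ND1 at -0.34 are the called genes below 0, and MT-ND4L at 0.86 is the highest.

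Levels per length differed far more between messenger RNAs than between groups. In vector the level ran from 490 ± 57.6 CPM per kilobase for MT-ND3 to 9528 ± 177 for MT-CO1, a 19.4-fold range among genes of which 12 share 1 precursor. MT-ATP6, MT-ATP8 and MT-CO2 followed MT-CO1 at 6913 ± 626, 6848 ± 699 and 6541 ± 217 CPM per kilobase, within their spread of each other. MT-CO3 and MT-ND4 came next at 3563 ± 474 and 3553 ± 228, with MT-ND4L at 2973 ± 228 and MT-CYB at 2275 ± 460 CPM per kilobase.

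In overexpression the range was 18.7-fold, and MT-CO2, at 9067 ± 208 CPM per kilobase, stood above MT-ATP8 and MT-ATP6 at 6470 ± 418 and 6189 ± 124. MT-ND4L, at 5409 ± 99.1, came before MT-CO3 at 4996 ± 206 and MT-ND4 at 4749 ± 105 CPM per kilobase. The lower end held MT-ND1 at 1200 ± 28.2, now below MT-ND6 at 1473 ± 57.01, where in vector MT-ND1 at 1517 ± 30.8 had been above MT-ND6 at 1030 ± 154. Short frames such as MT-ATP8 (207 bases) and MT-ND4L (297 bases) hold fewer whole fragments, so their level per length is less certain.

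**Figure D3:**
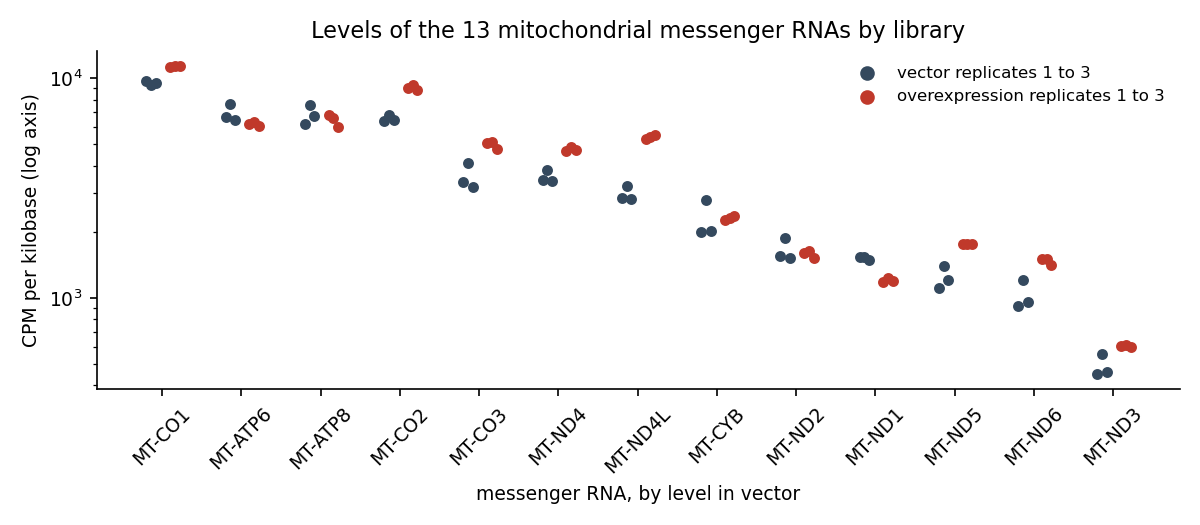
Level of each mitochondrial messenger RNA in each library in CPM per kilobase (log axis), ordered by the mean in vector; dark points are the 3 vector and red points the 3 overexpression libraries. MT-CO1 is highest and MT-ND3 lowest in both groups, and the middle vector point, replicate 2, lies high for MT-CYB and MT-ND2.

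Relative to each other the messenger RNAs also shifted. ATP synthase subunits held 14.4% ± 0.508 of the sum of the 13 in vector and 10.9% ± 0.1996 in overexpression, and cytochrome c oxidase subunits 51.6% ± 2.10 and 54.2% ± 0.0903 (SD, n = 3). Complex I subunits held 27.9% ± 0.726 and 29.7% ± 0.125, and MT-CYB 6.07% ± 0.880 and 5.19% ± 0.145. None of these shares overlapped between groups, but vector replicate 2 stood apart in 2 of them, with 7.08% for MT-CYB against 5.52% and 5.59% and 49.2% for cytochrome c oxidase against 53.1% and 52.6%. Without it the difference was -0.366 instead of -0.874 percentage points for MT-CYB and 1.32 instead of 2.53 for cytochrome c oxidase. MT-CO1 made up 34.6% ± 2.37 and 34.3% ± 0.404 with overlap. Over the 13 transcripts the exact permutation p was 0.1 for 11, 0.4 for MT-ND3 and 1 for MT-CO1 (n = 3), and the adjusted p of the 11 was 0.118, so none passed a threshold that this design cannot reach.

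With the sum of the 13 as library size in edgeR, a scale on which the median of all tested genes was -0.24 and 12.2% of them were called higher and 36.4% lower, 6 messenger RNAs were higher, 4 lower and 3 not called. MT-ND4L (0.61 ± 0.04, adjusted p = 1.39e-05), MT-ND6 (0.26 ± 0.07, adjusted p = 0.0142), MT-ND5, MT-CO3, MT-CO2 and MT-ND4 were higher on this scale. MT-ND1 (-0.60 ± 0.04, adjusted p = 2.04e-05), MT-ATP6 (-0.42 ± 0.04, adjusted p = 4.73e-05), MT-ATP8 and MT-ND2 were lower, and MT-CO1, at -0.01, changed sign and was not called. The rise of MT-CO1 in the whole-library comparison was thus close to that of the 13 as a whole. However, MT-CO1 made up 34.6% of that sum in vector and 34.3% in overexpression, so it was compared in part with itself. MT-ND4L exceeded the rise of the 13, and MT-ND1 fell on both scales. Because the 13 are set against their own sum, the higher and lower calls on this scale are not independent of each other.

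The ribosomal RNAs moved apart. MT-RNR1, the 12S RNA of the small ribosomal subunit (chrM:648-1601), was at 650, 636 and 632 CPM in overexpression and 845, 940 and 863 CPM in vector (-0.47 ± 0.05, adjusted p = 0.000155). MT-RNR2, the 16S RNA of the large subunit (chrM:1671-3229), was at 5626, 5695 and 5294 CPM against 4523, 4340 and 4678 CPM (0.30 ± 0.04, adjusted p = 0.000949). Neighbours on 1 precursor, with only MT-TV between them, they gave a ratio of MT-RNR2 to MT-RNR1 counts of 8.66, 8.95 and 8.38 in overexpression and 5.35, 4.62 and 5.42 in vector. On the scale of the 13 messenger RNAs, MT-RNR1 was lower by -0.72 ± 0.04 (adjusted p = 6.19e-06) and MT-RNR2 was not called (0.03 ± 0.06, adjusted p = 0.69).

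Their abundance was below that of several messenger RNAs, MT-RNR1 at 925 ± 52.5 and MT-RNR2 at 2895 ± 108 CPM per kilobase in vector. The labels name total RNA and a TruSeq kit but not whether poly(A) RNA was selected or ribosomal RNA removed. Of 14 RNAs without a poly(A) tail, 10 were tested, 2 rose and 3 fell, with a summed level of 23.6 to 54.1 CPM in overexpression and 27.9 to 33.1 CPM in vector. RN7SL1 and RN7SL2, the signal recognition particle RNAs, rose by 2.68 ± 0.49 and 3.20 ± 0.80. RPPH1, the RNA of RNase P, and the histone genes H1-2 and H2AC6 fell, with changes of -4.50 ± 0.76, -2.08 ± 0.29 and -1.65 ± 0.22. RPPH1 had 0, 29 and 36 estimated counts in overexpression against 505, 487 and 473 in vector, so the size of its fall is less certain than its SE. Of 4 nuclear-retained RNAs, 3 were tested, MALAT1 rose by 1.82 ± 0.08 and NEAT1 fell by 1.55, and their summed level was 376 to 433 CPM against 133 to 160 CPM. The part of library selection or of nuclear RNA content in the mitochondrial changes was not tested.

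The transfer RNA genes held the widest changes of the mitochondrial genome. MT-TF, the first gene of the heavy-strand unit, had 212, 248 and 209 estimated counts in overexpression against 27, 25 and 39 in vector, a 7.31-fold rise (log2 2.87 ± 0.27, adjusted p = 8.58e-05). MT-TV, between the ribosomal RNAs, had 190, 217 and 174 against 27, 28 and 40, a 6.10-fold rise (2.61 ± 0.26, adjusted p = 0.00011). MT-TW had 58, 78 and 71 against 15, 21 and 17 (1.98 ± 0.30, adjusted p = 0.000955), and MT-TM 221, 255 and 233 against 54, 107 and 74 (1.64 ± 0.20, adjusted p = 0.000376). In these 4 genes the groups did not overlap, which was also so for 58.7% of all tested genes. However, the vector counts of MT-TF, MT-TV and MT-TW lie close to 12 estimated counts, taken here as 3 read pairs. The sizes of their rises are therefore less certain than their SE. MT-TI, MT-TL1 and MT-TT rose by 0.80 ± 0.18, 0.42 ± 0.10 and 0.81 ± 0.15, and MT-TD was not called (0.26 ± 0.26, and 0.13 to 0.48 without 1 library, lowest without overexpression replicate 2 and highest without vector replicate 2). With the GC and length trend removed, MT-TI and MT-TL1 were not called (edgeR adjusted p = 0.0554 and 0.159). That trend was fitted on nuclear genes alone, and how well it holds for genes as short as these was not tested.

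A run of 6 heavy-strand transfer RNA genes between MT-CO2 and MT-ND5 fell. Of the messenger RNAs along this stretch, MT-CO2, MT-CO3, MT-ND3, MT-ND4L, MT-ND4 and MT-ND5 rose, and MT-ATP8 and MT-ATP6 were not called. MT-TK, between MT-CO2 and MT-ATP8, fell most, with 168, 222 and 156 estimated counts in overexpression against 368, 596 and 470 in vector (-1.37 ± 0.16, adjusted p = 0.000266). MT-TR, just before MT-ND4L, had 309, 358 and 229 against 542, 712 and 656 (-1.08 ± 0.16, adjusted p = 0.000863). MT-TH, MT-TS2 and MT-TL2, which stand side by side between MT-ND4 and MT-ND5, had changes of -0.77 ± 0.16, -0.67 ± 0.14 and -0.68 ± 0.13 (adjusted p = 0.00555, 0.00519 and 0.00356). MT-TG, between MT-CO3 and MT-ND3, changed by -0.47 ± 0.13 (adjusted p = 0.0189), and its call was lost in 4 of the 6 fits that left out 1 library, those without overexpression replicate 1 or 3 or vector replicate 1 or 3 (adjusted p = 0.0604, 0.0674, 0.0518 and 0.0652). In CPM none of the 6 genes overlapped between groups, which was also so for 58.7% of all tested genes and for 21 of the 22 transfer RNA genes. This split by position was noticed in the values and has no test of its own.

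Of the 8 light-strand transfer RNA genes 7 rose, and MT-TS1 was short of the threshold (0.21 ± 0.08, adjusted p = 0.0533). MT-TS1 was called higher by DESeq2 (adjusted p = 0.0442), with upper-quartile factors (0.0202), under the stricter filter (0.0329), with values divided by 4 (0.037) and without overexpression replicate 3 (0.0262). Its change ran from 0.13, without overexpression replicate 2, to 0.27 without 1 library, and it was -0.017 with the GC and length trend removed. MT-TA had 4367, 4942 and 4203 estimated counts in overexpression against 1341, 1780 and 1607 in vector (1.53 ± 0.06, adjusted p = 1.37e-06). MT-TN, MT-TC and MT-TY, the next genes of the same cluster beside the light-strand replication origin, rose by 1.20 ± 0.05, 0.84 ± 0.06 and 0.88 ± 0.05 (adjusted p = 3.02e-06, 1.74e-05 and 7.05e-06). MT-TQ rose by 1.10 ± 0.23 and MT-TP by 0.67 ± 0.19; MT-TP lost its call without any 1 overexpression library (adjusted p = 0.0539 to 0.0647). MT-TE, at 0.47 ± 0.16, was barely past the threshold (adjusted p = 0.047) and was not called in several alternatives, among them the fit without vector replicate 3 (0.37, adjusted p = 0.145).

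The cluster of 4 also carried most transfer RNA counts, 70.8% ± 1.21 of them in overexpression and 55.1% ± 1.47 in vector. Per unscaled library total, the summed light-strand genes stood at 242 ± 8.78 CPM in vector and 479 ± 7.73 CPM in overexpression without overlap, whereas the summed heavy-strand genes, whose members moved both ways, were at 76.1 ± 4.07 and 73.4 ± 3.39 CPM with overlap (SD, n = 3). In vector the level per length of MT-TY was 954 ± 38.7 CPM per kilobase, of MT-TC 749 ± 43.9 and of MT-TN 637 ± 30.04, against 98.5 ± 7.45 for MT-TK and 3.78 ± 0.0698 for MT-TW. All transfer RNA genes, of 59 to 75 bases, are shorter than usual library fragments, so the values can come from precursors or from RNA of the opposite strand, and mature transfer RNA cannot be told apart from these. MT-TS1 lies opposite the end of the MT-CO1 transcript, and its counts were 0.376% ± 0.0386 of those of MT-CO1 in overexpression and 0.386% ± 0.0104 in vector, with overlap.

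**Figure D4:**
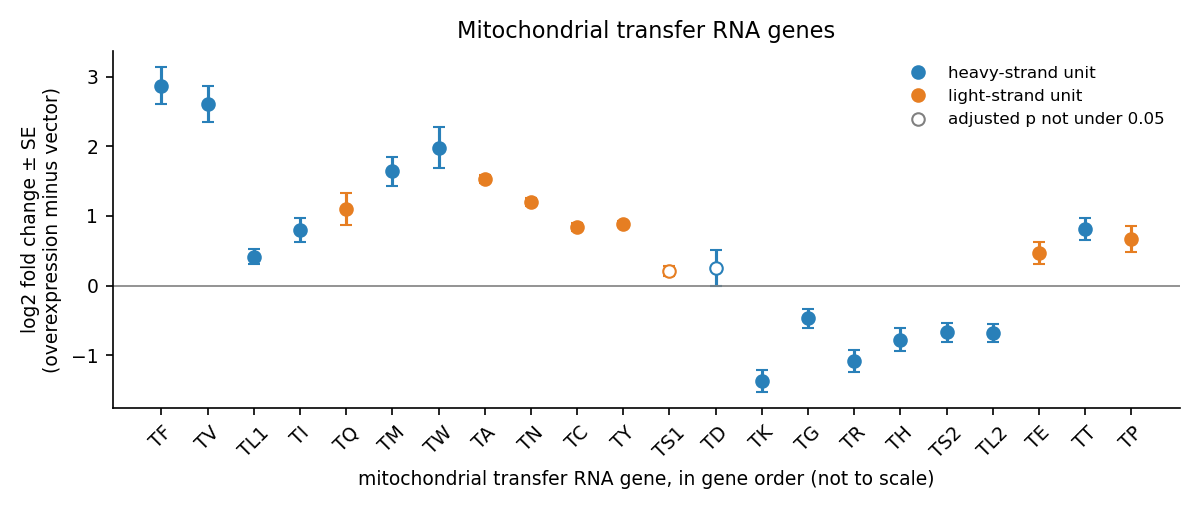
Log2 fold change ± SE (vertical axis, overexpression minus vector, edgeR) of the 22 mitochondrial transfer RNA genes in gene order; blue marks the heavy-strand and orange the light-strand unit, and open points have an adjusted p of 0.05 or more. MT-TF at 2.87 is highest, MT-TK at -1.37 lowest, and the 6 genes from MT-TK to MT-TL2 lie below 0.

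The nuclear genome holds many copies of mitochondrial genes whose near-identical sequence can take or lend reads. Of 402 such symbols 33 were tested, 11 were called higher by edgeR and the others were not called, where 22.6% of all tested genes were called higher and 23.4% lower. The summed share of the 402 in the library was 0.0602% ± 0.00174 in overexpression against 0.0531% ± 0.00400 in vector. The most abundant, MTCO1P12 (chromosome 1, 631074 to 632616), had 1.49% ± 0.0659 of the MT-CO1 counts in overexpression and 1.45% ± 0.0488 in vector. MTATP6P1 and MTND2P28, in the same block of chromosome 1, had 3.53% ± 0.192 against 3.39% ± 0.0954 of MT-ATP6 and 8.11% ± 0.411 against 8.995% ± 0.578 of MT-ND2, also with overlap. MTND4P12 and MTCO3P12 had far fewer counts than MT-ND4 and MT-CO3, at 0.106% ± 0.00231 and 0.123% ± 0.00239 in overexpression and 0.0587% ± 0.00669 and 0.0922% ± 0.0114 in vector, without overlap. Levels of the mitochondrial genes are uncertain to the extent of such shared reads, most for MT-ND2.

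Of 10 listed nuclear genes that transcribe mitochondrial DNA, 7 fell and 2 rose, with a median of -0.34 beside 0.02 for all genes tested. These were 70% and 20% of the list, where 23.4% of all tested genes fell and 22.6% rose. Without 1 library 4 to 6 fell, with 4 without overexpression replicate 1, where 35.6% to 49.5% of all tested genes were called in either direction. In this list 1 rose without overexpression replicate 2 or 3 or vector replicate 1 or 3 and with the GC and length trend removed. TFAM, which bends and packages mitochondrial DNA and opens its promoters, was at 78.8 ± 7.95 CPM in overexpression and 106 ± 6.998 in vector (-0.43 ± 0.08, adjusted p = 0.00315). POLRMT, the mitochondrial RNA polymerase, was at 116 ± 5.47 against 147 ± 9.03 CPM (-0.33 ± 0.06, adjusted p = 0.00255), and TFB2M, its initiation factor, at 13.9 ± 1.70 against 25.9 ± 2.93 CPM (-0.90 ± 0.12, adjusted p = 0.000606). TEFM, the elongation factor, changed by -0.34 ± 0.11 (adjusted p = 0.0382). MTERF1, a factor that binds just after the ribosomal RNA genes, and TFB1M, which methylates the 12S RNA, rose by 0.59 ± 0.11 and 0.37 ± 0.10.

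Of 20 genes of mitochondrial RNA stability and decay, 12 fell and 0 rose by edgeR (median -0.24). These were 60% and 0% of the list, where 23.4% of all tested genes fell and 22.6% rose. At an unadjusted edgeR p under 0.05, 0 were higher, and DESeq2 and limma-voom also called 0 higher. PNPT1, the degrading exonuclease polynucleotide phosphorylase, was at 59.0 ± 2.95 CPM in overexpression and 104 ± 6.17 in vector (-0.82 ± 0.06, adjusted p = 3.29e-05), while its helicase partner SUPV3L1 was not called (-0.05 ± 0.06, adjusted p = 0.494). LRPPRC and SLIRP, which together bind and stabilise the messenger RNAs, changed by -0.31 ± 0.05 (adjusted p = 0.000861) and -0.41 ± 0.14 (adjusted p = 0.0402). GRSF1, a protein of mitochondrial RNA granules, and FASTKD2, an RNA-binding protein of the same granules, changed by -0.58 ± 0.05 and -0.55 ± 0.06. With upper-quartile factors 1 gene of this list was called higher.

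Of 27 RNA processing and modification genes, 12 fell and 4 rose (median -0.15). These were 44.4% and 14.8% of the list, where 23.4% of all tested genes fell and 22.6% rose. TRUB2 and RPUSD4, pseudouridine synthases, changed by -0.77 ± 0.08 and -0.47 ± 0.06, and TRMU, which thiolates transfer RNAs, by -0.44 ± 0.05. MTO1, which modifies the wobble base of transfer RNAs, rose by 0.63 ± 0.07, RPUSD3 by 0.40 ± 0.06 and METTL15, a 12S RNA methyltransferase, by 0.32 ± 0.07. The called falls numbered 7 with upper-quartile factors and without overexpression replicate 1 or 2.

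Replication and nucleotide supply genes went both ways, 8 of 23 rising, 5 without overexpression replicate 2, and 7 falling (median 0.07). With all libraries 34.8% of this list rose and 30.4% fell, where all tested genes had 22.6% and 23.4%. LIG3, the mitochondrial DNA ligase, rose from 113 ± 0.703 to 194 ± 6.78 CPM, with ABAT and PRIMPOL at 0.84 ± 0.06 and 0.60 ± 0.08. RNASEH1, SUCLA2 and SLC25A33, a pyrimidine nucleotide carrier, changed by -0.50 ± 0.05, -0.57 ± 0.07 and -0.80 ± 0.08. Among 16 translation factor genes tested 3 rose and 3 fell (median 0.08), 18.8% each way and near the shares of all tested genes. By DESeq2 or with the GC and length trend removed, 5 rose. TUFM, the mitochondrial elongation factor Tu, rose by 0.34 ± 0.06 and TACO1, an activator of MT-CO1 translation, by 0.47 ± 0.09, whereas C1QBP, a matrix protein needed for mitochondrial translation, changed by -0.94 ± 0.08. Of 9 regulators of mitochondrial biogenesis tested, 7 fell (77.8%) and 1 rose (11.1%), with a median of -0.43. The gene that rose, GABPA at 0.23 ± 0.06, was not called without overexpression replicate 1 or 2. ESRRA changed by -0.83 ± 0.06 and YY1 by -0.73 ± 0.04.

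Calls among nuclear partners of the mitochondrially encoded subunits went both ways, to be read beside 22.6% higher and 23.4% lower over all tested genes. For cytochrome c oxidase, where all 3 mitochondrial genes rose, 1 of 11 nuclear subunit genes rose and 5 fell (median -0.08), 3 without any 1 overexpression library, and 2 rose without vector replicate 2. COX6A1 rose by 0.47 ± 0.05, and COX6C, COX5A and COX7B changed by -0.65 ± 0.07, -0.65 ± 0.08 and -0.32 ± 0.08. For complex I, 8 of 37 nuclear genes rose and 10 fell (median -0.01), with NDUFA7 at 0.68 ± 0.06 and NDUFB6 at -1.005 ± 0.09. For ATP synthase 2 of 18 rose and 11 fell (median -0.31), ATP5MC3 and ATP5F1D by -1.05 ± 0.06 and -0.98 ± 0.06, and for complex III 1 of 9 rose, 3 without vector replicate 2, and 4 fell (median -0.07), UQCRC2 by 0.90 ± 0.05 and CYC1 by -0.9997 ± 0.05. Over the 176 nuclear genes of all 10 lists that were tested, 29 rose and 75 fell, 16.5% and 42.6% of them, where all tested genes had 22.6% and 23.4%. Genes of higher counts were called more often, 29.1% higher and 29.8% lower under the stricter filter, so the shares over all tested genes are a low background for well-expressed genes. These lists were compared with the whole table by count and median only.

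**Figure D5:**
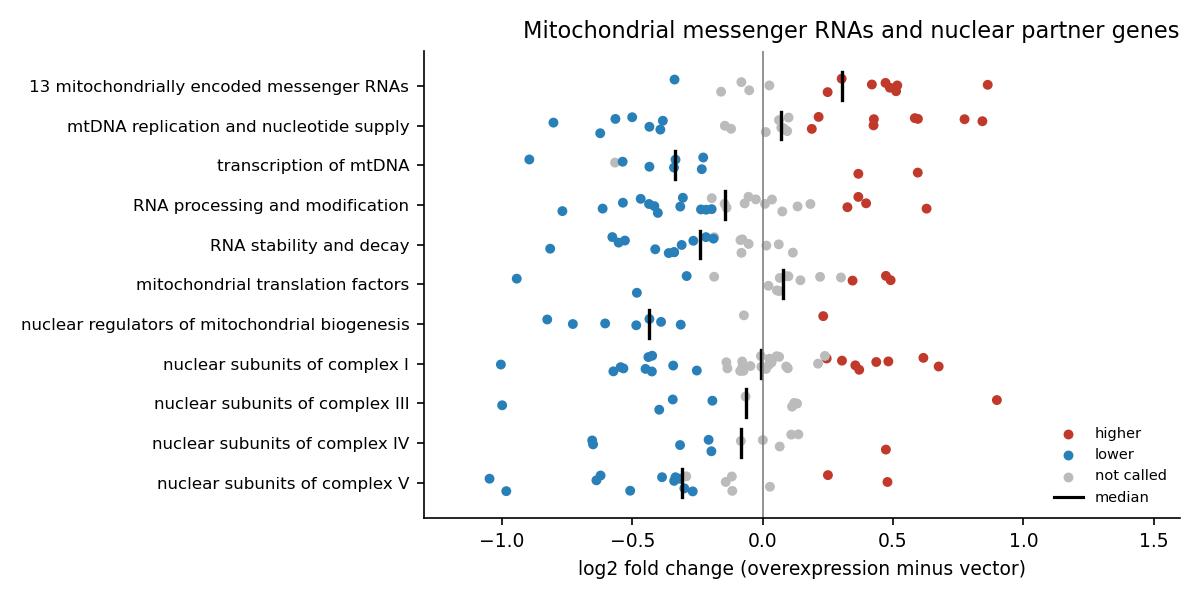
Log2 fold change (horizontal axis, overexpression minus vector, edgeR) of the 13 mitochondrial messenger RNAs (top row) and of the nuclear genes of 10 lists; each point is a gene, red if called higher, blue if called lower and grey if not called, and the black line is the median of the row. The median is 0.30 for the mitochondrial messenger RNAs, -0.34 for the genes listed under transcription of mitochondrial DNA and -0.31 for nuclear ATP synthase subunits.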

How the data were processed

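The authors deposited expected counts (estimated counts, all whole numbers) per gene symbol, 1 column per library, for 3 overexpression and 3 vector libraries. The submitters' processing notes list hg38 as build and, as tools, DESeq2, StringTie, STAR 2.7.10a and fastp 0.23.2; no source used here gives the annotation, the strand setting or the treatment of multi-mapping reads. A value of 4 was more frequent than 3 in every column, as if 1 read pair added about 4. Values of 1 (2716 to 3651 genes per column) and 2 (1111 to 1243) were more frequent still, and the unit is not settled. No counting intervals are given, and the floor of 3 read pairs, taken as 12 estimated counts, covers counting error only.

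Genes passing edgeR's default filter were TMM-scaled and compared by edgeR 4.0.16 (R 4.3.3) with group as the only term; SE came from the F statistic. The fit was also run on counts simulated from its own model with few genes changed. That run checks the code only, since far more genes were called in the real counts. DESeq2 1.42.0, limma-voom (limma 3.58.1), other scaling factors, other filters, nuclear-only library sizes, the sum of the 13 mitochondrial messenger RNAs as library size, a replicate block, each library left out, removal of a per-library spline trend on GC content and length (81.6% of tested genes had both) and values divided by 4 were alternatives. The GC and length trend was fitted on nuclear genes alone, with extreme GC contents and lengths set to outer quantiles of those genes, and was then removed from the mitochondrial genes too. Shares and ratios used raw totals and exact permutation tests. All members were named, and of each nuclear list up to 3 genes per direction with the smallest adjusted p and a mean of at least 100 estimated counts, plus fixed genes; some examples the rule allows were left out for length. Members and lists were chosen with earlier results of these data known. Genome features came from GENCODE 29. Figures were drawn with matplotlib 3.10.9.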

Additional observations from a re-analysis of the deposited data

How the results depend on the processing

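Of the 31 members called, 25 kept their direction and call in all 16 alternatives other than the scale of the 13 messenger RNAs, 8 of them messenger RNAs and 15 transfer RNA genes, and 23 also on that scale; MT-TW did not pass the stricter filter, so that alternative was not run for it. Messenger RNAs called lower numbered 2 with DESeq2 and 3 with the GC and length trend removed, against 1; leaving out 1 library gave 1 to 2 lower and 7 to 9 higher, and 12 to 14 transfer RNA genes higher with 5 to 6 lower. The difference of the 37 genes' share stayed between 1.25 and 1.41 percentage points without any 1 library. Sign changed for MT-TS1 with that trend removed (-0.017) and on the scale of the 13 (-0.049). For MT-CYB it changed under the same 2 settings (-0.15 and -0.22) and without vector replicate 1 or 3 (-0.065 and -0.062), its values without 1 library running from -0.065 to 0.195. MT-ND2 changed sign without vector replicate 2 (0.038; without 1 library -0.11 to 0.038) and MT-CO1 on the scale of the 13 (-0.012). The share of MT-CO1 in the 13 was higher by 0.467 and 0.325 percentage points without vector replicate 1 and 3, against -0.288 with all libraries, and without 1 library it ran from -1.66 to 0.467. With the replicate block, MT-TE alone among the 37 lost its call (0.49, adjusted p = 0.0546). Deviations from the group means were almost uncorrelated between same-numbered libraries (0.00521, 0.00125 and 0.0230). Not every library correlated best with its own number. The labels do not say whether same-numbered libraries were handled together, and such correlations cannot settle it. Calls summed over the nuclear lists were 23 to 33 higher and 59 to 77 lower without 1 library; single lists moved by over 1.5 times in some fits, complex IV genes to 3 lower with no filter or upper-quartile factors and translation factors to 5 higher with DESeq2. Over all genes, 35.6% to 49.5% were called without 1 library. The cause of these differences was not tested. Depth limits MT-TF, MT-TV and MT-TW most.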
